A study of Mus musculus with 19 samples.

Results

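The PYHIN p200 genes are a cluster of interferon-inducible genes on mouse chromosome 1. The 9 listed members were Ifi203, Ifi204, Ifi207, Ifi209, Ifi211, Ifi213, Mnda, Mndal and Aim2, and members were taken by symbol from the rows of the count table. Of these, 8 of 9 had a row among the 50854 genes of the table. Mnda had none, and RefSeq lists that name as a synonym of Ifi211. Bulk RNA-seq was made from cells labelled as monocytes and sorted out of the bone marrow of female REP mice aged 8 to 12 weeks. In this strain the expression of several receptors, including Ccr1 and Ccr2, is reported by fluorescent proteins. Sorting of CCR1/2+ve and of CCR2+ve monocytes is described in the study's methods. Most marker levels of the inflamed CCR1-labelled libraries, given below, went against the monocyte label. There were 19 labelled libraries in 5 groups. Resting CCR1/2+ve (n = 4) and resting CCR2+ve (n = 4) monocytes came from mice labelled as resting, and the sources used do not say whether those mice carried a vehicle pump. Inflamed CCR1/2+ve (n = 3), inflamed CCR2+ve (n = 4) and inflamed CCR1-labelled (n = 4) cells came from mice labelled as inflamed, which per the study's methods had an osmotic pump releasing IL-3, IL-6, GM-CSF and IFN-α for 7 days. IFN-α was therefore part of the treatment in all 3 inflamed groups. The 2 reporters separated CCR1/2+ve from CCR2+ve cells.

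PYHIN proteins join a pyrin domain, which binds other pyrin domains, to a HIN domain, which binds DNA. Aim2 binds double-stranded DNA in the cytosol and assembles an inflammasome with the adaptor encoded by Pycard and with caspase-1, while the product of Ifi204 is regarded as a mouse counterpart of human IFI16 and takes part in DNA sensing upstream of STING. Many genes of the family carry interferon response elements and are expressed in myeloid cells. On GRCm38 the 8 members spanned chr1:173350879-173942672, or 592 kb, in the order Aim2, Ifi213, Ifi209, Ifi207, Ifi204, Mndal, Ifi211 and Ifi203. Aim2 and Ifi209 lay on the plus strand and the other 6 on the minus strand. The annotated span of Mndal (chr1:173849126-173942491) holds the whole of Ifi211.

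RefSeq promoter windows on GRCm38.p6, from 250 bases before to 50 after a start site, were found for 7 of the 9 members, not for Ifi204 or Mnda. They were searched on both strands for GAAA, any 2 bases and GAAA, the core of the interferon-stimulated response element, and for TTCNNNGAA, the core of the gamma-activated site. Of all 32851 windows, 3.44% held the first motif and 8.3% the second. The first was found for 5 members (Ifi203, Ifi207, Ifi211, Ifi213 and Mndal) and the second for none of the 7. The levels of the members went together over the 8 resting libraries, with r of at least 0.923 for each pair of members other than Aim2. Those pairs include Ifi209, which held no match, and Ifi204, which had no window. The resting libraries form 2 groups that differ in most members, and this difference enters r. Whether the motif has a part in these levels was not tested. Over the 7 inflamed CCR1/2+ve and CCR2+ve libraries the lowest such r was 0.144, for Ifi213 and Mndal. Stretches of 60 bases are shown because of the resting values. Each is written on the gene's strand with the 10 letters of the match in capitals, at chr1:173599311-173599370 for Ifi213, chr1:173741816-173741875 for Ifi207, chr1:173913049-173913108 for Ifi211, chr1:173880189-173880248 for Mndal and chr1:173942493-173942552 for Ifi203, all on the minus strand.
Ifi213: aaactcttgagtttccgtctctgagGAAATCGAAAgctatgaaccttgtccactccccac
Ifi207: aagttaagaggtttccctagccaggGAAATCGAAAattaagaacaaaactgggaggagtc
Ifi211: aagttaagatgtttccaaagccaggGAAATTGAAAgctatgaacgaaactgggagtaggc
Mndal: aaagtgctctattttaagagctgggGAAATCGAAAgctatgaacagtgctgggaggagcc
Ifi203: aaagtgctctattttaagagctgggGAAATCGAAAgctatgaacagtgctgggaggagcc
The match began 73 bases before the start site in Ifi213, 41 in Ifi207, 37 in Ifi211, 36 in Mndal and 35 in Ifi203. The stretches of Mndal and Ifi203 were identical in all 60 bases, those of Ifi207 and Ifi211 in 50 and those of Ifi207 and Ifi213 in 29. Ifi203 and Mndal each had 2 windows. The other window of Ifi203 held no match, and that of Mndal held GAAAGAGAAA on the opposite strand.

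Neither Ifi209 nor Aim2 held the first motif in its window, which says only that these letters are not there. The stretch of the Ifi209 window with most bases in common with a matching member shared 41 of 60 with Ifi213, at chr1:173630755-173630814 on the plus strand. It is shown because Ifi209 is among the members with r of at least 0.923 over the resting libraries. Its capitals mark the bases aligned with the motif, where 7 of the 8 fixed letters were the same.
Ifi209: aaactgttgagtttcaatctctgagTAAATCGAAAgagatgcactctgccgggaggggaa
Windows with at least 7 of the 8 fixed letters were common, at 35.4% of all. The closest stretch of Aim2 shared 27 of 60 bases, with Mndal, and 2 of the 8 letters, while another stretch of its window held 7 of the 8 letters on the opposite strand, 51 bases before the start site.

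Libraries held 22268658 to 30502009 counts. The totals ran from 23846583 to 30502009 in resting CCR1/2+ve, from 23274596 to 25261675 in resting CCR2+ve, from 22268658 to 24444993 in inflamed CCR1/2+ve, from 22502998 to 24293969 in inflamed CCR2+ve and from 22566184 to 23706580 in inflamed CCR1-labelled libraries. A floor of 3 reads per library came to between 0.0984 and 0.135 CPM before scaling. Such floors cover counting error only, since the reads carry no molecular identifiers. Levels are given below in CPM scaled by TMM over the 19 libraries, and between genes as CPM per kb of exon.

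Members share sequence, which bears on their counts, because the authors kept reads that aligned to 1 place. Of all words of 35 bases in its annotated transcripts, Ifi211 shared 77.6% with transcripts of other genes, Ifi209 43.6%, Ifi204 30.5%, Mndal 26.4%, Ifi213 23.6%, Ifi203 19.5%, Ifi207 12.1% and Aim2 3.64%. With words of 100 bases the shares were 56.9% for Ifi211, 16.9% for Ifi209 and at most 10.7% for the other 6. Levels per kb therefore understate the members that share most, while a comparison of 1 gene between groups uses the same positions throughout. Exons of Mndal overlapped those of other genes over 4.27% of their bases and exons of Ifi203 over 0.55%.

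In most markers the inflamed CCR1-labelled libraries went against their label as monocytes. Ccr2 read 5.81 ± 2.56 CPM there (SD, n = 4), against means of 633 to 1251 CPM in the other 4 groups. Csf1r, the receptor for the monocyte growth factor CSF-1, read 17.7 ± 4.43 CPM against 407 to 1504. Ccr1 itself read 38.0 ± 4.58 CPM, below the 75.1 to 309.9 CPM of the other groups. Cybb, Itgam and Ly6c2, also on the monocyte list, were closer to the other groups. Cybb read 2862 ± 274.6 CPM against means of 1887 to 3200. Itgam read 91.7 ± 10.3 CPM against 92.2 to 131.7 and Ly6c2 1419 ± 49.0 against 1856 to 2647. Of the 11 monocyte markers 8 fell and 0 rose against inflamed CCR2+ve cells, where 17.0% of all genes fell and 14.6% rose. The 11 neutrophil markers summed to 173800 ± 16730 CPM, led by Ngp at 85940 CPM, against 1008 to 5887 CPM elsewhere, and the 11 monocyte markers to 12940 ± 2174 CPM against 38270 to 54650. These libraries are called CCR1-labelled below, and every comparison among the other 4 groups was fitted without them.

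In the 4 monocyte groups the lists moved too. The neutrophil markers, 11 of 11 with over 3 reads in at least 1 library of each group, summed to 5585, 8097, 4711 and 5153 CPM in resting CCR1/2+ve replicates 1 to 4, with Mpo most abundant at 1826 CPM, and to 1028, 1842, 1060 and 698.6 CPM in resting CCR2+ve, again led by Mpo at 375.5 CPM. In inflamed cells they summed to 2478, 1870 and 2078 CPM in CCR1/2+ve replicates 2 to 4 and to 1094, 1127, 898.9 and 909.7 CPM in CCR2+ve replicates 1 to 4, led by Csf3r in both. Every CCR1/2+ve library was thus above every CCR2+ve library of the same state. The 8 dendritic cell markers summed to 212, 116, 100.5 and 137 CPM in resting CCR1/2+ve cells, with Bst2 most abundant at 78.6 CPM, and to 774, 346, 333.5 and 535 CPM in resting CCR2+ve cells, led by H2-Ab1 at 226 CPM. They summed to 134.5, 170.4 and 193 CPM in inflamed CCR1/2+ve and to 249, 419, 709 and 230.0 CPM in inflamed CCR2+ve cells, with 7 of 8 and 8 of 8 over 3 reads in at least 1 library. Bst2 is also one of the interferon-stimulated genes listed below. No marker of these lists was at 0 reads in a whole monocyte group. The 11 monocyte markers, led by Lyz2 in all groups, averaged 38270 ± 5411 CPM in resting CCR1/2+ve, 51050 ± 3191 in resting CCR2+ve, 54650 ± 1813 in inflamed CCR1/2+ve and 52940 ± 4364 in inflamed CCR2+ve cells.

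**Figure D1:**
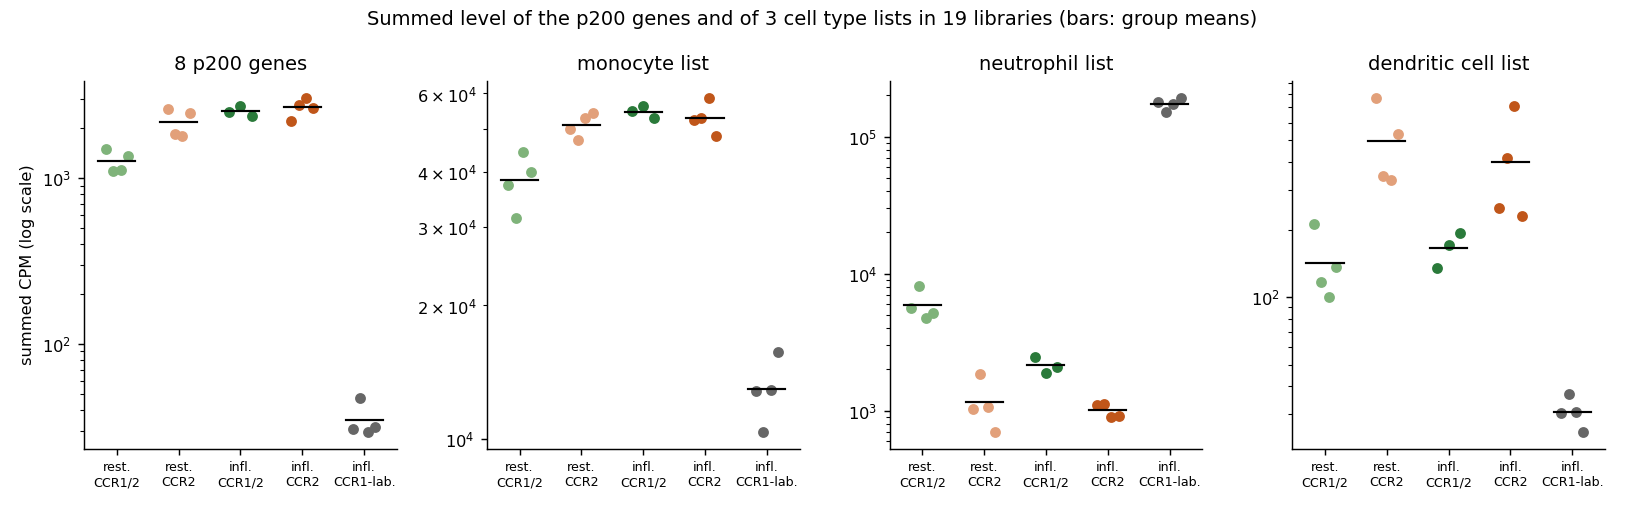
Summed CPM on a log axis of the 8 p200 genes and of the monocyte, neutrophil and dendritic cell lists, with 1 point per library and a bar at each group mean. The p200 sum of the 4 CCR1-labelled libraries lay between 29.4 and 47.5 CPM and the lowest sum in any other library was 1107 CPM.

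Together the 8 members took 1268 ± 194 CPM in resting CCR1/2+ve, 2176 ± 410.1 in resting CCR2+ve, 2534 ± 183 in inflamed CCR1/2+ve, 2662 ± 349 in inflamed CCR2+ve and 34.8 ± 8.48 in CCR1-labelled libraries. Resting CCR1/2+ve cells had the lowest mean of the 4 monocyte groups for each of the 8 genes. For Ifi213 and Aim2 their libraries overlapped those of resting CCR2+ve cells. The share of all genes with their lowest mean in that group was not counted. Per kb, Ifi209 had the highest level in all 4 of these groups, at 112 ± 14.0, 176 ± 27.7, 251 ± 16.8 and 257 ± 36.8 CPM per kb in the same order. Ifi207 came next in each, from 55.3 to 137 CPM per kb, and Ifi213 and Aim2 were the lowest pair, at 5.13 to 19.6 and 12.0 to 14.6 CPM per kb. The order of Ifi204, Mndal and Ifi211 between them changed with the group, by less than their spread for Ifi204 and Mndal in resting CCR1/2+ve and for Mndal and Ifi211 in inflamed CCR1/2+ve and CCR2+ve cells. In CCR1-labelled libraries Aim2 was the highest per kb, at 2.89 ± 0.462 CPM per kb, with Mndal at 2.15 ± 0.485 and Ifi209 at 2.03 ± 0.95.

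**Figure D2:**
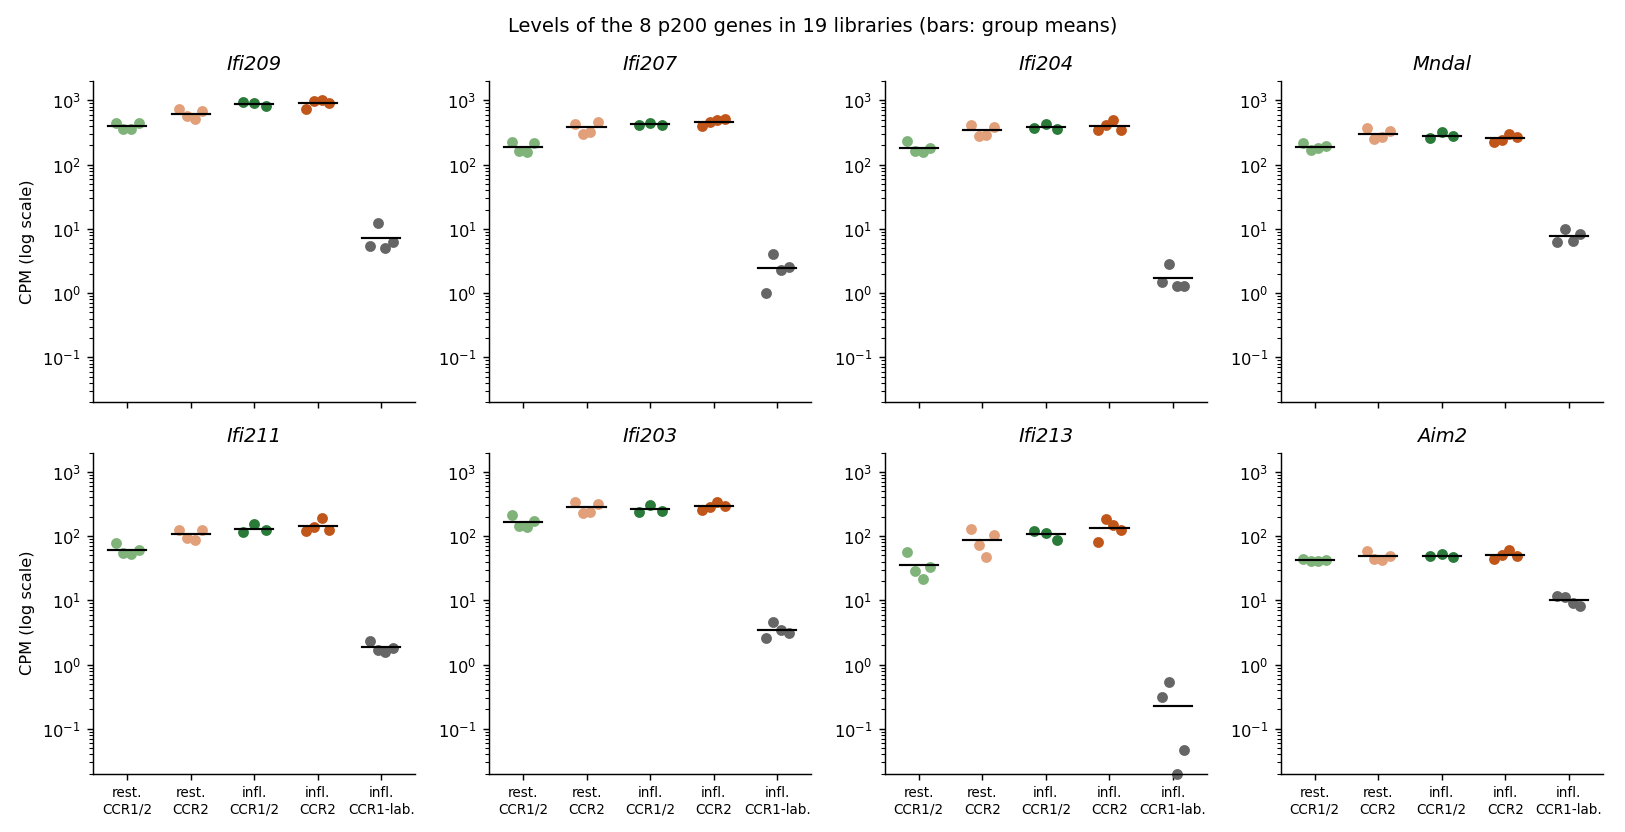
CPM of each of the 8 genes on a log axis, with 1 point per library in replicate order and a bar at the group mean; the CCR1-labelled library without a read of Ifi213 is drawn on the lower axis. Resting CCR1/2+ve has the lowest mean of the monocyte groups in each panel, with overlap with resting CCR2+ve for Ifi213 and Aim2. The CCR1-labelled libraries lie below all others.

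Ifi209, the most abundant member, read 437.5, 352, 359 and 445 CPM in resting CCR1/2+ve replicates 1 to 4, 722, 577, 509.8 and 688 CPM in resting CCR2+ve replicates 1 to 4, 933, 915 and 822 CPM in inflamed CCR1/2+ve replicates 2 to 4, and 732, 982, 1030 and 906 CPM in inflamed CCR2+ve replicates 1 to 4. It formed a ladder without overlap from resting CCR1/2+ve through resting CCR2+ve to the inflamed cells, and its 2 inflamed groups overlapped. Its step from resting to inflamed CCR2+ve cells was narrow and was lost with TMM over the 15 monocyte libraries or with RLE size factors, checks chosen after seeing the data. In the same order of libraries Ifi207 read 221, 160.1, 158 and 217 CPM, then 426.5, 302, 320.3 and 466 CPM, then 421, 438.5 and 414 CPM, then 402, 467, 491 and 512 CPM. Ifi204 read 231, 163, 159 and 182 CPM, then 420.2, 280.3, 289.6 and 383 CPM, then 368, 431 and 359 CPM, then 344, 411, 490.3 and 345 CPM. For both genes the 4 resting CCR1/2+ve libraries lay below the other 11 monocyte libraries, and the other 3 groups overlapped. Replicates 1 and 4 were above replicates 2 and 3 in both resting groups.

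Ifi213 varied most, at 57.5, 28.5, 21.8 and 32.6 CPM in resting CCR1/2+ve, 131, 71.55, 47.7 and 103 CPM in resting CCR2+ve, 121, 114 and 87.1 CPM in inflamed CCR1/2+ve, and 80.6, 184.5, 147 and 124 CPM in inflamed CCR2+ve libraries. Its replicate 1 was the highest and its replicate 3 the lowest in both resting groups, and these groups overlapped, since the highest resting CCR1/2+ve library exceeded the lowest resting CCR2+ve library. Mndal read 219, 167, 179 and 197 CPM, then 365, 247, 265 and 339.5 CPM, then 255.5, 321 and 274 CPM, then 229, 244, 302 and 271 CPM in the same order. It was the 1 member with its highest mean in resting CCR2+ve cells, 304 ± 57.1 CPM, and the 3 groups above resting CCR1/2+ve overlapped. With TMM over the 15 monocyte libraries its resting CCR1/2+ve libraries also overlapped the inflamed CCR2+ve libraries.

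Aim2, the inflammasome sensor, stayed within a narrow range, at 44.1, 40.4, 40.8 and 42.3 CPM in resting CCR1/2+ve, 58.8, 43.9, 42.25 and 48.5 CPM in resting CCR2+ve, 49.2, 52.45 and 46.9 CPM in inflamed CCR1/2+ve, and 44.4, 49.9, 61.5 and 49.2 CPM in inflamed CCR2+ve libraries. Both inflamed groups of Aim2 lay above resting CCR1/2+ve and every other pair of monocyte groups overlapped, but with TMM over the 15 monocyte libraries all pairs overlapped, as resting CCR1/2+ve then ran from 43.1 to 48.5 CPM, inflamed CCR1/2+ve from 45.5 to 50.55 CPM and inflamed CCR2+ve from 43.35 to 60.9 CPM. Ifi211 ran from 53.55 to 76.8 CPM in resting CCR1/2+ve, 86.4 to 124 in resting CCR2+ve, 115 to 154.5 in inflamed CCR1/2+ve and 121 to 190.2 in inflamed CCR2+ve libraries. Ifi203 ran from 140.2 to 217, 230.4 to 341, 241 to 303 and 254.5 to 335 CPM in the same order. Both had resting CCR1/2+ve below the other 3 groups with no overlap, which for Ifi203 did not hold against inflamed CCR1/2+ve cells with TMM over the 15 libraries.

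The comparison of inflamed with resting CCR1/2+ve cells asks what the cytokine infusion goes with in cells carrying both receptors. Of the 8 tested, 3 rose by at least 2-fold at an adjusted p under 0.05 and 0 fell, where 9.21% of the 18547 genes tested rose and 19.5% fell by that rule in edgeR. Unadjusted p under 0.05 gave 0 lower, as did DESeq2 by the adjusted rule. Ifi213 rose by 1.47 on the log2 scale (SE 0.31, adjusted p = 0.00354), Ifi207 by 1.04 (SE 0.13, adjusted p = 4.18e-05) and Ifi209 by 1.03 (SE 0.10, adjusted p = 6.24e-06). Without the fold cutoff 7 rose, against 20.7% of all genes, and the added 4 were Ifi211 at 0.96, Ifi204 at 0.94, Ifi203 at 0.51 and Mndal at 0.45. Aim2 differed by 0.11 (SE 0.10, adjusted p = 0.404). All 3 inflamed libraries lay above all 4 resting libraries for 8 of 8 members, as they did for 24.5% of all genes, and for 6 of 8, not Aim2 or Ifi203, with TMM over the 15 monocyte libraries. The median log2 fold change was 0.95 over the members and −0.27 over all genes. That median of all genes moved to −0.18 with RLE size factors and to −0.12 with all 19 libraries in a single fit, and the count of members was 5 in each. It was also 5 in DESeq2, with a replicate block and without resting CCR1/2+ve replicate 1, and it was 1 without resting CCR1/2+ve replicate 3, when Ifi207 read 0.94 and Ifi209 read 0.97, just under the fold cutoff. Ifi204 and Ifi211 were the genes gained without replicate 1, at 1.12 and 1.14, and Ifi211 was also called, at 1.05, without inflamed CCR1/2+ve replicate 2. Cell type lists moved in this comparison too, with 4 higher and 0 lower of 11 monocyte markers, 5 and 4 of 11 neutrophil markers, 1 and 4 of 8 dendritic cell markers and 1 and 4 of 7 macrophage markers, and their part was not tested. The p-values measure the spread between libraries, which may be technical, since the labels do not say that the libraries came from separate animals.

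In CCR2+ve cells the same comparison gave smaller values. By the rule with the fold cutoff 0 of 8 members rose and 0 fell in edgeR, where 9.47% of the 18502 genes tested rose and 19.3% fell, and DESeq2 also gave 0 and 0. At unadjusted p under 0.05 there were 2 higher, against 24.8% of all genes, and 0 lower, against 29.1%. Ifi209 passed the adjusted test without the fold cutoff, at a log2 fold change of 0.48 (SE 0.13, adjusted p = 0.00796), 1 of 8 members against 22.1% of all genes, and was the 1 member with all 4 inflamed above all 4 resting libraries, as 22.4% of all genes were, which held for 0 of 8 with TMM over the 15 libraries or with RLE. The count without the cutoff was 3 when either resting CCR2+ve replicate 1 or replicate 4 was left out and 2 without inflamed CCR2+ve replicate 1. The other log2 fold changes were 0.53 for Ifi213 (SE 0.32), 0.36 for Ifi211, 0.24 for Ifi207, 0.14 for Ifi204, 0.01 for Aim2, −0.01 for Ifi203 and −0.29 for Mndal (SE 0.14, adjusted p = 0.101). The signs for Ifi203 and Aim2 changed with the processing, Ifi203 being above 0 in DESeq2, with RLE size factors and in a single fit and Aim2 being below 0 with filterByExpr. The median was 0.19 over the members and −0.11 over all genes. Here 2 rose and 1 fell of the monocyte markers, 4 and 1 of the neutrophil, 1 and 4 of the dendritic cell and 2 and 0 of the macrophage markers, and their part was not tested.

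Whether these responses differ between the populations was tested as an interaction over the 15 monocyte libraries. In edgeR 0 of 8 members passed, where 0.398% of 18599 genes did, and the lowest adjusted p was 0.114, for Ifi207. All 8 estimates were above 0, from 0.06 for Aim2 to 0.91 for Ifi213 (SE 0.50), with 0.76 for both Ifi207 (SE 0.21) and Ifi204 (SE 0.22) and 0.69 for Mndal (SE 0.20). At unadjusted p under 0.05 there were 6, all positive, against 5.74% of genes positive by that rule. DESeq2 called 3, Ifi204, Ifi207 and Mndal, against 2.87% of genes, and edgeR with a replicate block called 1, Ifi207 at an adjusted p of 0.0443, against 1.19% of genes. The median was 0.62 over the members and −0.10 over all genes.

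**Figure D3:**
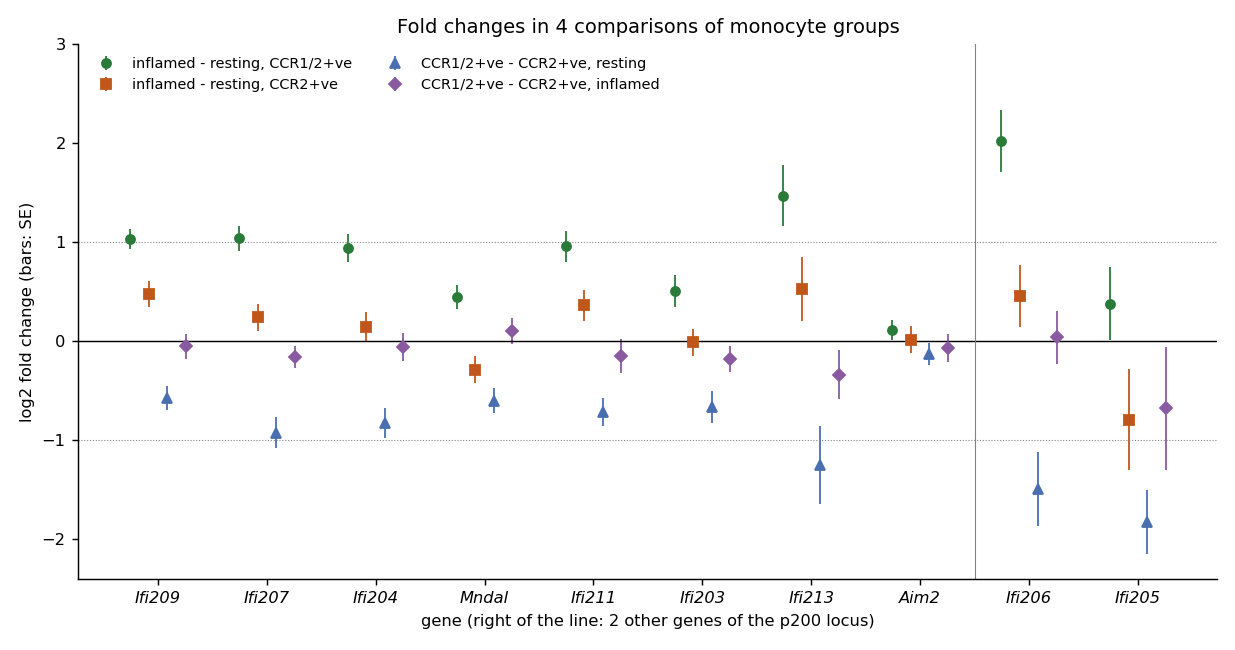
Log2 fold changes with SE of the 8 members, and of 2 other genes of the locus to the right of the line, in 4 comparisons of monocyte groups, with dotted lines at the fold cutoff. Circles (inflamed against resting CCR1/2+ve) run from 0.11 for Aim2 to 1.47 for Ifi213 among the members, and triangles (resting CCR1/2+ve against resting CCR2+ve) from −0.13 to −1.25.

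The resting populations were compared to ask what sets CCR1/2+ve apart from CCR2+ve cells before inflammation. With the fold cutoff edgeR called 0 of 8 higher and 0 lower, where 2.36% and 1.92% of the 18498 genes tested were called. Without the cutoff 6 fell, against 8.52% of all genes. They were Ifi207, by 0.92 on the log2 scale (SE 0.15, adjusted p = 0.00137), Ifi204 by 0.82, Ifi211 by 0.72, Ifi203 by 0.67, Mndal by 0.60 and Ifi209 by 0.57, and their 4 CCR1/2+ve libraries lay below all 4 CCR2+ve libraries, as held for 12.3% of all genes. At unadjusted p under 0.05 there were 0 higher and 7 lower, against 14.6% of all genes lower. Ifi213 had the largest difference, −1.25 (SE 0.39, adjusted p = 0.0673), and Aim2 the smallest, −0.13 (adjusted p = 0.471). The median was −0.69 over the members and 0.04 over all genes. DESeq2 called 0 higher and 1 lower, Ifi213, against 1.99% of all genes lower. In the resting comparison libraries with the same number went together, as the correlations in the methods show, and with the replicate block edgeR called 1 lower, Ifi213 at an adjusted p of 3.18e-08, against 2.32% of all genes. The count with the fold cutoff was 2 without resting CCR1/2+ve replicate 1 or without resting CCR2+ve replicate 3, and 1 without resting CCR2+ve replicate 2. These left-out fits called Ifi207, at −1.02 without CCR1/2+ve replicate 1, and the fits without CCR1/2+ve replicate 1 and without CCR2+ve replicate 3 also called Ifi213, at −1.60 and −1.46.

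Set side by side by replicate number, the CCR1/2+ve library read less than the CCR2+ve library in 4 of 4 pairs for every member. These are the same 4 pairs of libraries for each gene, and the share of all genes that did so was not counted. The ratio ran from 0.317 to 0.456 for Ifi213, 0.467 to 0.53 for Ifi207, 0.476 to 0.583 for Ifi204, 0.498 to 0.627 for Ifi211, 0.548 to 0.635 for Ifi203, 0.579 to 0.675 for Mndal, 0.606 to 0.704 for Ifi209 and 0.749 to 0.966 for Aim2. The neutrophil list was higher and the dendritic and monocyte lists were lower in the resting CCR1/2+ve libraries, with the values given above, and their part in the p200 difference was not tested.

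**Figure D4:**
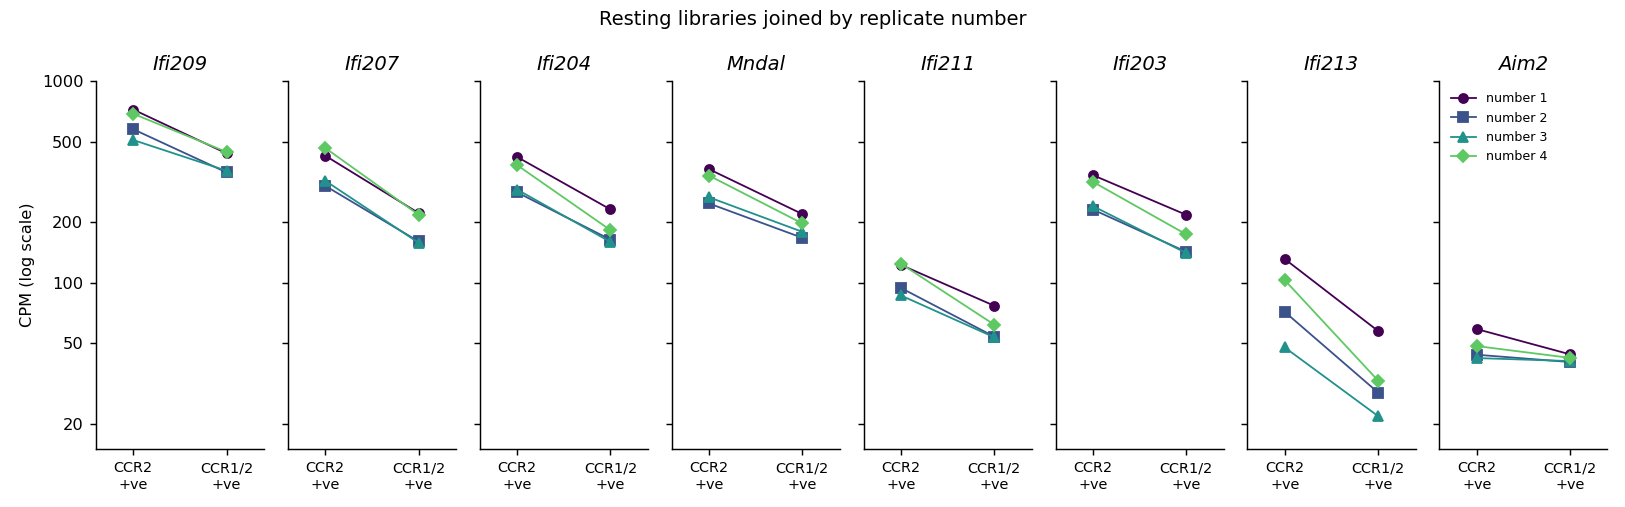
CPM on a log axis of the 8 genes in the resting libraries, with a line joining the CCR2+ve and CCR1/2+ve libraries of the same replicate number. All 32 lines descend, most steeply for Ifi213 and least for Aim2, and each gene uses the same pairs of libraries.

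In the inflamed state the 2 populations were alike in these genes to within their spread. Inflamed CCR1/2+ve against inflamed CCR2+ve gave 0 higher and 0 lower of 8 in edgeR, where 0.104% and 0.0438% of the 18281 genes tested were called, with 0 and 0 at unadjusted p under 0.05 and 0 and 0 in DESeq2. Log2 fold changes ran from −0.34 for Ifi213 (SE 0.25, adjusted p = 0.722) to 0.10 for Mndal (SE 0.13, adjusted p = 0.841), with a median of −0.11 over the members and −0.04 over all genes. A p over the threshold does not show that the levels were equal. This comparison, the resting one and those of inflamed with resting cells share libraries in pairs.

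The CCR1-labelled libraries held few p200 reads, with Ifi213 at 7, 12, 0 and 1 reads. Ifi209 read 5.315, 12.2, 5.03 and 6.21 CPM, Ifi207 1.00, 4.11, 2.31 and 2.54 CPM and Ifi204 1.499, 2.84, 1.29 and 1.27 CPM in replicates 1 to 4. Mndal read 6.27, 10.1, 6.56 and 8.33 CPM and Aim2 11.5, 11.4, 9.24 and 8.28 CPM. Replicate 2 was the highest for Ifi209, Ifi207, Ifi204 and Mndal but not for Aim2. All 8 members fell against inflamed CCR2+ve cells in edgeR, and 0 rose (0 also at unadjusted p under 0.05 and in DESeq2), where 17.0% of the 18485 genes tested fell and 14.6% rose. The log2 fold changes were −2.33 for Aim2 (SE 0.16, adjusted p = 1.93e-09), −5.06 for Mndal, −6.27 for Ifi211, −6.41 for Ifi203, −6.98 for Ifi209, −7.55 for Ifi207, −7.83 for Ifi204 and −9.14 for Ifi213 (SE 0.54, adjusted p = 4.81e-07; −10.01 to −8.73 over the alternatives and left-out libraries), with a median of −6.69 over the members and −0.02 over all genes. Against inflamed CCR1/2+ve cells 8 fell and 0 rose by the same tests, where 14.8% of the 18418 genes tested fell and 13.4% rose. The log2 fold changes ran from −2.29 for Aim2 (SE 0.15) to −8.83 for Ifi213 (SE 0.52). The value of Ifi213 ran from −9.701 to −8.415 over the alternatives and left-out libraries. The median was −6.60 over the members beside −0.01 over all genes. All CCR1-labelled libraries lay below all inflamed CCR2+ve libraries for 8 of 8 members and 24.4% of genes, and below all inflamed CCR1/2+ve libraries for 8 of 8 members and 25.5% of genes. The 2 comparisons share the CCR1-labelled libraries. In bulk samples, fewer cells that express a gene and less of its RNA per cell cannot be told apart, here and in the comparisons above. The fall goes with the marker values given for these libraries, and their part in it was not tested.

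Other genes of the locus were read in the same way. Of 10 listed, 6 had a row (Ifi202b, Ifi203-ps, Ifi205, Ifi206, Ifi208 and Ifi214) and 5 were tested, since Ifi202b had 0 reads in 19 libraries. Ifi206 averaged 24.5 ± 10.4, 73.1 ± 28.1, 109 ± 19.7 and 105 ± 34.5 CPM in resting CCR1/2+ve, resting CCR2+ve, inflamed CCR1/2+ve and inflamed CCR2+ve cells. Ifi205 averaged 24.4 ± 9.04, 91.7 ± 33.6, 34.8 ± 17.7 and 55.25 ± 38.7 CPM in that order. By group mean Ifi206 was thus lowest in resting CCR1/2+ve cells and highest in the inflamed groups, while Ifi205 was highest in resting CCR2+ve cells. Inflamed and resting CCR2+ve libraries overlapped for both genes, with edgeR adjusted p of 0.268 for Ifi206 and 0.245 for Ifi205. Ifi208, Ifi214 and the pseudogene Ifi203-ps stayed under 3 CPM on average in each group. In inflamed against resting CCR1/2+ve cells 2 of 5 rose, Ifi206 by 2.02 (SE 0.31, adjusted p = 0.000588) and Ifi214 by 1.15 (adjusted p = 0.0489), and 0 fell, with a median of 0.58. Of all genes, 9.21% rose and 19.5% fell in this comparison. The call of Ifi214 was lost without any of the 3 inflamed replicates or resting CCR1/2+ve replicates 2, 3 or 4 (adjusted p of 0.0702 to 0.109), leaving a count of 1. In CCR2+ve cells 0 rose and 0 fell, in edgeR and in DESeq2, with a median of −0.45, where 9.47% of all genes rose and 19.3% fell in edgeR. Ifi205 was called lower without inflamed CCR2+ve replicate 3, at −1.39, and Ifi208 without resting CCR2+ve replicate 2 or inflamed CCR2+ve replicate 1, at −1.24 and −1.55, and with filterByExpr, at −1.15. In resting CCR1/2+ve against CCR2+ve cells 3 of 5 fell, Ifi205 by 1.83 (SE 0.32, adjusted p = 0.00543), with Ifi214 at −1.51 and Ifi206 at −1.49 and a median of −1.51. Of all genes, 1.92% fell between the resting populations. The call of Ifi206 was lost without resting CCR1/2+ve replicate 2 or 4 or resting CCR2+ve replicate 1 or 4 (adjusted p of 0.0541 to 0.0993) and with no filter on low counts (adjusted p = 0.0847). Ifi203-ps was called lower with the replicate block, at −1.10 (adjusted p = 0.0103), and without resting CCR1/2+ve replicate 1, at −1.48. The inflamed populations gave 0 and 0 in edgeR and in DESeq2, and the interaction 0 of 5 in edgeR and 1 in DESeq2, Ifi214, with a median of 1.52. Of all genes, 0.398% passed the interaction in edgeR and 2.87% in DESeq2. All 5 fell in CCR1-labelled cells against inflamed CCR2+ve and inflamed CCR1/2+ve cells, where 17.0% and 14.8% of all genes fell. Of the 5, 4 were at the floor in CCR1-labelled cells. With these genes at their bound, the median of −8.18 against inflamed CCR2+ve cells became −4.02. The windows of Ifi205, Ifi206, Ifi208 and Ifi214 held the first motif, and that of Ifi202b held TTCNNNGAA.

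In the span and within 500 kb of it lay 46 other genes of the table, 7 of them tested. In inflamed against resting CCR1/2+ve cells 1 rose and 0 fell, and in CCR2+ve cells 2 rose and 2 fell, all at a mean under 5 CPM. Of all genes, 9.21% rose and 19.5% fell in CCR1/2+ve cells and 9.47% rose and 19.3% fell in CCR2+ve cells. Fcer1a, a chain of the high-affinity IgE receptor, rose in both, from 0.137 to 4.63 CPM (adjusted p = 0.00277) and from 0.204 to 3.97 CPM (adjusted p = 1.92e-05). In CCR2+ve cells Gm44339 rose from 0.0492 to 0.256 CPM and Cadm3 fell from 0.715 to 0.235 CPM.

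The genes of the pathways around the family were read from fixed lists. Of 12 tested genes of a list of inflammasome genes, which holds other sensors and not Aim2 itself, 4 rose and 0 fell with inflammation in CCR1/2+ve cells (median 0.70) and 2 rose and 0 fell in CCR2+ve cells (median 0.51), beside 9.21% and 9.47% of all genes higher. Nlrp3, a sensor of another inflammasome, rose from 21.4 to 58.9 CPM in CCR1/2+ve cells (log2 fold change 1.33, SE 0.10) and from 26.5 to 58.7 CPM in CCR2+ve cells (1.08, SE 0.11). Nlrp1a (1.16) and Il1rn (1.31), which encodes the interleukin-1 receptor antagonist, also rose in CCR1/2+ve cells and Nlrp1b (1.03) in CCR2+ve cells. The count in CCR2+ve cells was 1 without inflamed replicate 3 or 4. It was 3 in DESeq2, with RLE size factors, in a single fit, with the replicate block and without some of the other libraries. In resting CCR1/2+ve against CCR2+ve cells 1 fell, Il18, by 1.01 (adjusted p = 0.00334), with a median of −0.15. That call was lost with filterByExpr and without resting CCR1/2+ve replicate 2, 3 or 4 or resting CCR2+ve replicate 1. Among 14 tested genes of cytosolic DNA sensing, 6 rose and 2 fell in CCR1/2+ve cells (median 0.58), and 3 rose and 2 fell in CCR2+ve cells (median 0.48). In CCR2+ve cells 5 rose without resting replicate 1, and 2 rose with filterByExpr or without inflamed replicate 3. Of all genes, 9.21% rose and 19.5% fell in CCR1/2+ve cells and 9.47% rose and 19.3% fell in CCR2+ve cells. Adar, an RNA-editing enzyme, rose by 2.04 and 1.86, Ikbke by 1.33 and 1.30, and Tmem173, which encodes STING, by 1.37 in CCR1/2+ve cells, while Zbp1 rose by 1.02 in CCR2+ve cells. Cgas, the DNA sensor that makes the STING ligand, fell by 1.96 and 1.91 and Rnaseh2c by 3.94 and 3.20. Irf7 fell by 1.09 in resting CCR1/2+ve against CCR2+ve cells (adjusted p = 0.0259), the 1 call of that list there (median −0.07). It was lost with no filter on low counts and without resting CCR1/2+ve replicate 2, 3 or 4 or resting CCR2+ve replicate 1 or 4. Between the resting populations 2.36% of all genes rose and 1.92% fell.

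Of 14 tested genes of the type I interferon receptor and ISGF3 list, 5 rose and 3 fell with inflammation in CCR1/2+ve cells (median 0.66; 3 to 7 rising over the alternatives) and 3 rose and 4 fell in CCR2+ve cells (median 0.10). Tyk2, a kinase of the receptor, rose by 2.15 and 2.50 and Socs3 from 0.951 to 8.46 CPM and from 2.702 to 13.4 CPM, with Usp18 at 1.44 in CCR1/2+ve and Stat2 at 1.36 in CCR2+ve cells. Among those that fell were Ifnar2, a receptor chain, at −1.76 and −2.05, Irf8 at −2.80 and −2.54, Socs1 at −3.49 in CCR1/2+ve and Jak1 at −1.53 in CCR2+ve cells. Between the resting populations 0 rose and 0 fell in edgeR (median −0.53) and 1 fell in DESeq2, with 3 lower without resting CCR1/2+ve replicate 1 and 1 lower without resting CCR2+ve replicate 3 or 4. Without the fold cutoff 8 of 14 fell there in edgeR, against 8.52% of all genes. Of 22 reference interferon-stimulated genes, 14 rose and 1 fell in CCR1/2+ve cells (median 1.28) and 6 rose and 2 fell in CCR2+ve cells (median 0.42), 1 falling without resting CCR2+ve replicate 1 or 4 or inflamed CCR2+ve replicate 1 or 2. For both lists the shares of all genes that rose and fell were 9.21% and 19.5% in CCR1/2+ve cells, 9.47% and 19.3% in CCR2+ve cells, and 2.36% and 1.92% between the resting populations. Oas3 rose by 3.47 and 2.58 and Eif2ak2, a kinase activated by double-stranded RNA, by 1.63 and 1.18, with Dhx58 at 1.40 in CCR1/2+ve and Oas1a at 1.66 in CCR2+ve cells. Those that fell were Cmpk2 at −2.78 and −3.02, and Rsad2 at −1.03 in CCR2+ve cells. Between the resting populations 0 rose and 6 fell (median −0.90), among them Ifit3 by 1.39, Ifit1 by 1.30 and Ifit2 by 1.29, and 12 fell without resting CCR1/2+ve replicate 1 or resting CCR2+ve replicate 3 and 3 without resting CCR1/2+ve replicate 2. Without the fold cutoff 16 of 22 fell, against 8.52% of all genes. The members' medians of 0.95, 0.19 and −0.69 in the same 3 comparisons can be set beside 1.28, 0.42 and −0.90 here. None of the 4 lists had a gene called between the inflamed populations, in edgeR or in DESeq2. In CCR1-labelled against inflamed CCR2+ve cells 7 of 12, 5 of 14, 12 of 14 and 19 of 22 fell in the order of the lists above, and 1 gene rose, Rnaseh2c of the DNA sensing list. Of all genes tested there, 17.0% fell and 14.6% rose.

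**Figure D5:**
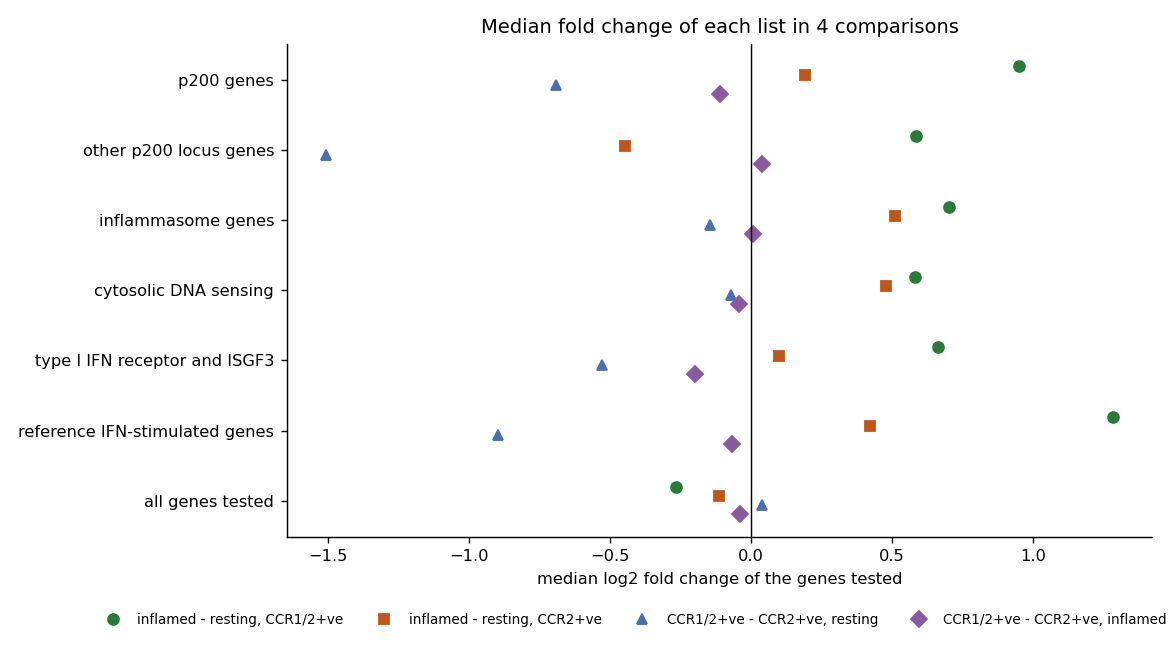
Median log2 fold change of the p200 members, of the other tested genes of the locus, of 4 pathway lists and of all genes tested in 4 comparisons of monocyte groups. The members lie at 0.95 for inflamed against resting CCR1/2+ve cells and at −0.69 for resting CCR1/2+ve against CCR2+ve cells, and all genes at −0.27 and 0.04.

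The members also went together from library to library. Over the 15 monocyte libraries Pearson r of log2(CPM + 2) between pairs of members ran from 0.718 (Ifi209 and Mndal) to 0.982 (Ifi204 and Ifi211), with a median of 0.923 over 28 pairs. Over the 8 resting libraries the median was 0.971 and over the 7 inflamed CCR1/2+ve and CCR2+ve libraries 0.654, from 0.144 for Ifi213 and Mndal to 0.948 for Ifi204 and Ifi211. The libraries share their groups, and Ifi204 and Ifi211 share sequence. Over all 19 libraries r was 0.967 to 0.998, which rests on the CCR1-labelled libraries standing apart. Among 7677 non-member genes with a mean of at least 10 CPM, those most like the mean z-score of the members over 19 libraries were Gm8953, Clec4a3, Slfn5, Ms4a6b (r = 0.997 each) and Slfn1 (r = 0.996). For Ifi209 they were Pld4, Gm8953, Cd68, Tpd52 and Lat2, for Ifi207 Slfn5, Gm8953, Clec4a3, Ccr2 and Lat2, and for Ifi204 Clec4a3, Ctss, Ccr2, Ms4a4c and Gm8953, at r of 0.996 to 0.998. Over the 15 monocyte libraries, an alternative chosen after seeing the data, the genes most like the mean z-score included Ifi206 of the same locus (r = 0.981), Ddx58 (0.976), Slfn5 (0.968) and Gm5431 (0.964). For Ifi209 they were Lgals3bp (0.986), Oasl2 (0.983), Sp100 (0.982), Irf7 (0.979) and Slfn8 (0.979). Those for Ifi207 included Slfn5 (0.976), Pttg1 (0.97) and Sdc3 (0.966). Those for Ifi204 included Ifi206 (0.971), Ddx58 (0.971), Sirpb1a (0.969) and Ptprc (0.963). Ifi205, the other expressed neighbour, had r = 0.667 with the mean z-score over these libraries.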

How the data were processed

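Raw counts per gene, as deposited by the authors, were used for 19 libraries of bulk RNA-seq; 1 further column of the table matched no sample record and was not used. Per the submitters' processing notes reads were aligned with STAR 2.7.10a, and the study's methods state that counts came from STAR and from reads aligned to 1 place. The strand setting of the counting is not given in the sources used. The members and all lists were chosen with earlier results of these data known. The 18652 genes averaging 1 read or more per library were taken, and those with a read in the libraries compared were fitted in edgeR 4.0.16 under R 4.3.3 (TMM, robust quasi-likelihood F test, two-sided, Benjamini-Hochberg over all genes tested), with a call where the adjusted p was below 0.05 and the change 2-fold or more, or by adjusted p alone for the interaction; the pipeline was tested on simulated data. Each fit used the libraries of its groups only. Alternatives were DESeq2 1.42.0, RLE size factors, other filters, a single fit, a replicate block and each library left out. Exons and symbols came from GENCODE M21, and tables were made with Python 3.11.15, pandas 2.3.3, numpy 2.4.6 and matplotlib 3.10.9. Named genes were every member, up to 3 genes called in each direction with the smallest p of each pathway list, every other gene of the locus with a row, called neighbours within 500 kb, and the 5 genes of highest r; some genes that met these rules are not reported here. Pairing of libraries by replicate number was checked by correlating deviations from the group mean over 7685 genes. Same-number libraries of the resting populations gave r of 0.335 to 0.59 and other pairs −0.401 to 0.203, and CCR1-labelled against inflamed CCR2+ve libraries gave 0.165 to 0.3 and −0.309 to 0.131. In the other 4 comparisons the ranges of same-number and other pairs overlapped.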

Additional observations from a re-analysis of the deposited data

Results flagged for a closer look

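In the CCR1-labelled libraries replicate 2 stood far above the other 3 for 2 members, Ifi209 at 12.2 CPM and Ifi204 at 2.84 CPM. Each was further from its group than 4 samples give by chance in about 1 in 20 groups. Of the 32 groups of 4 libraries checked for the 8 members, 2 met that rule, which is near the number that chance gives. Both were in the same library.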

How the results depend on the processing

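Most calls for the members were kept. Of 808 values of 56 log2 fold changes under the alternatives, 781 kept their side of the call, 25 gained a call, 2 lost one and 0 called values reversed. Of the 781, 18 had the other sign, none of them called. Counts that moved were these. Members higher in inflamed against resting CCR1/2+ve cells numbered 3 in the fit reported and 5 with DESeq2, RLE size factors, a single fit or the replicate block, 7 without the fold cutoff, and 1 to 5 when a library was left out. Members lower in resting CCR1/2+ve against CCR2+ve cells numbered 0 and then 1 with DESeq2, filterByExpr or the replicate block, 2 in a single fit, 6 without the cutoff, and 0 to 2 when a library was left out. Members higher in inflamed against resting CCR2+ve cells numbered 0, and 1 without the cutoff. The interaction gave 0, 3 in DESeq2 and 1 with the replicate block. The cause was not tested. All other counts of members with the fold cutoff were the same under each alternative, including the 8 lower in CCR1-labelled cells. Without the cutoff the counts of 7, 6 and 1 in these 3 comparisons of groups ran from 5 to 7, 6 to 7 and 1 to 3 over the alternatives and left-out libraries. Scaling by TMM over the 15 monocyte libraries, chosen after seeing the data, moved the group means of the members by −4.1% to 8.92%, and 30 of 32 moved by less than 1 SD (39 of 40 with RLE). Under it inflamed libraries lay above resting libraries for 6 of 8 members in CCR1/2+ve cells and 0 of 8 in CCR2+ve cells, where TMM over the 19 libraries gave 8 and 1. List counts, run under the same alternatives after seeing the data, moved most for the interferon-stimulated genes lower in resting CCR1/2+ve cells, 6 with 3 to 12 when a library was left out and 3 to 10 under the other alternatives. Depth limits the CCR1-labelled group, where Ifi213 had 20 reads in 4 libraries.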

Other observations

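The other cell type lists, read as summed levels, are given for completeness. In resting CCR1/2+ve, resting CCR2+ve, inflamed CCR1/2+ve, inflamed CCR2+ve and CCR1-labelled libraries the B cell markers summed to 675, 925, 1263, 1331 and 632 CPM, nearly all of it Ighm, and the macrophage markers to 242.5, 325, 601.5, 561.4 and 493 CPM, led by Adgre1 in the monocytes and by Vcam1 in CCR1-labelled cells. The erythroid markers summed to 96.7, 157, 2.22, 2.80 and 0.952 CPM and all 6 fell with inflammation in both monocyte populations. The T and NK cell markers summed to 48.9, 10.75, 5.86, 3.54 and 1561 CPM, led by Nkg7 in each group, the eosinophil markers to 4.19, 1.21, 2.60, 2.71 and 62.0 CPM and the basophil and mast cell markers to 1.43, 1.11, 14.5, 14.3 and 21.97 CPM. Of the 7 macrophage markers 5 were called higher in resting CCR1/2+ve than in resting CCR2+ve cells, though their sum was lower, and the part of these lists in the p200 results was not tested.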
